A study of Homo sapiens and Mus musculus with 24 samples.

Results

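RMRP, RPPH1, TERC, RNY1, RNY3, RNY4 and VTRNA1-1 are 7 human genes for small structured noncoding RNAs. The rule lists them by name, out of the 58381 genes of the human files, and uses no measured value. In the mouse files, which list 53715 genes, 5 of the 7 names were found when capital letters were ignored, carried by 6 identifiers because Rmrp has 2. RNA of 4 cell types had been sequenced from 3 nonirradiated and 3 UV-irradiated samples each, 24 samples in all. HepG2 is a human hepatocellular carcinoma line, HEK293 a human embryonic kidney line (written HEK293T in the study's methods) and Neuro2a a mouse neuroblastoma line. HippCulture is a primary culture of neurons from the hippocampus of mouse embryos at stage E16.5, treated with cytosine arabinoside against dividing cells, and no group carries a genetic change made by the study. Irradiated cells were exposed to UV and their RNA was taken from the aqueous phase of a TRIzol (acid phenol) extraction (UPA-seq), while nonirradiated cells gave conventional RNA-seq. The comparison asks which RNAs are lost from, or kept in, the aqueous phase once UV has bound RNA to protein. The study also proposes that bonds made by UV hindered reverse transcription. A lower read count therefore need not come from loss from the aqueous phase alone.

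RMRP is the RNA of RNase MRP, which cuts precursors of ribosomal RNA, and RPPH1 is the RNA of RNase P, which removes the leader of precursor tRNAs. Both are ribonucleoproteins of the nucleus and share most of their protein subunits. TERC is the RNA subunit of telomerase and holds the template from which telomere repeats are copied. The Y RNAs (RNY1, RNY3 and RNY4) are short RNAs bound by the Ro60 and La proteins, and VTRNA1-1 belongs to the vault particle, a large cytoplasmic ribonucleoprotein. RNA polymerase III makes all of them except TERC, a product of RNA polymerase II.

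Of the shortest members, 3 are printed first because their length and close relation bear on how well they were counted. Capitals in the Y RNAs mark the longest run of bases shared by RNY1, RNY3 and RNY4, 11 bases at the 5′ end, and capitals in VTRNA1-1 mark GTTCGA, the core of the B box of type 2 polymerase III promoters, found once. All are from hg38. RNY1 lies at chr7:148987136-148987248 (minus strand), RNY4 at chr7:148963315-148963410 (plus) and VTRNA1-1 at chr5:140711275-140711373 (plus).
RNY1: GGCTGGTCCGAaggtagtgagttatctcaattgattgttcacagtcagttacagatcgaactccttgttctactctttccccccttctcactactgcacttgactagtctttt
RNY4: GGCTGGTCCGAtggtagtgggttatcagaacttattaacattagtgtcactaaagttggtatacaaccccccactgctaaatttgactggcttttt
VTRNA1-1: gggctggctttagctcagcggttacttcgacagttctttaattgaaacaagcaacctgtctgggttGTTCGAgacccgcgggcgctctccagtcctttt

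RNY1 and RNY3 were identical at 72.6% of aligned positions, RNY1 and RNY4 at 63.7% and RNY3 and RNY4 at 65.1% (global alignment). The human files hold 812 genes named as Y RNAs or their copies, so a read of 1 copy may fit another. None of the 3 Y RNA genes lay within the span of another gene. A run of TTTT, searched on the gene's own strand from 10 bases before to 30 bases after the annotated end, was present in 6 of 7 human members and in 4 of 5 mouse members. TERC and Terc were the members without it. The same window held TTTT in 32.5% of all human and 29.4% of all mouse genes.

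The first 120 bases of TERC are shown for both species, since they hold the template and since this RNA differed most between the species and between the mouse cell types. Capitals mark CTAACCCT, which occurred once in each RNA, from position 46 in human TERC and from position 29 in mouse Terc. The human stretch is chr3:169764941-169765060 (hg38, minus strand) and the mouse stretch chr3:96414740-96414859 (mm10, minus strand).
TERC: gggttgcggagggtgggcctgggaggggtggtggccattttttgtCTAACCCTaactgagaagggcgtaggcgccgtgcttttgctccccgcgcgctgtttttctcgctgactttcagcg
Terc: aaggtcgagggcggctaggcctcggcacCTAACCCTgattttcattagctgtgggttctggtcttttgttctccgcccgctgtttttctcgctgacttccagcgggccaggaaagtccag

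TERC was identical at 58.6% of aligned positions between human and mouse, RPPH1 at 79.8%, RMRP at 81.0%, RNY3 at 95.1% and RNY1 at 97.3%. The annotated TERC gene has 541 exon bases and the mouse one 423. The order of conservation was not the order of read counts, since the 2 best conserved members were among those with the fewest reads. Whether read counts of such short RNAs follow their amount in cells was not tested.

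The total count per sample lay between 6910907 and 53511592. HepG2 samples had 36573473 or more, and no sample of another cell type passed 11188033. HepG2 was also sequenced on another sequencer model than the rest. The hepatocyte markers ALB, APOA1, APOB, AFP and TTR reached at least 110.5 CPM (a gene's reads relative to the library total) in every HepG2 sample and at most 0.648 in HEK293. In nonirradiated HippCulture the neuronal markers Map2, Rbfox3, Slc17a7, Camk2a and Gad1 lay between 48.7 and 1779 CPM. The astrocyte markers Gfap, Aqp4 and Slc1a3 lay between 38.2 and 492 CPM in the same samples, so the culture was not neurons alone, and the microglial markers Aif1 and Cx3cr1 stayed at or below 0.610 CPM. In Neuro2a the defining markers Hand2 and Dbh reached at least 7.92 CPM without UV, while Gata3 and Th stayed at or below 1.61 CPM.

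RPPH1 and RMRP were among the heavily sequenced RNAs of every cell type, and the others were not. In nonirradiated HepG2, RPPH1 stood at 14149.5, 16023 and 15963 RPKM (CPM per kilobase of exon) in the 3 samples and RMRP at 8922, 7314 and 7204. They took 0.512% ± 0.0355 (SD, n = 3) and 0.206% ± 0.0254 of all counts. TERC stood at 83.3, 98.8 and 98.1 RPKM there. The Y RNAs and VTRNA1-1 lay far lower, RNY3 between 5.42 and 10.99 RPKM, RNY1 between 2.13 and 5.32, RNY4 between 0.752 and 2.56 and VTRNA1-1 between 0.276 and 0.566. Of the neighbours in this order, RNY1 and RNY4 overlapped and the rest did not. The order RPPH1, RMRP, TERC also held in HEK293, where they averaged 30255 ± 4078, 16863 ± 2391 and 140.0 ± 32.3 RPKM (SD, n = 3). There RNY1 led the low members, its range overlapped that of VTRNA1-1, which overlapped that of RNY3, and RNY4 had no read in any nonirradiated sample. A count of 0 in the 3 HEK293 samples allows up to 0.311 to 0.318 CPM per sample, counting error alone being covered.

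In Neuro2a the leading pair was in the opposite order. Rmrp stood at 16547, 19476 and 15880.4 RPKM and Rpph1 at 4339.6, 5475 and 4594, so that every Rmrp value lay above every Rpph1 value. In HippCulture Rpph1 led again, at 9409.7, 13331 and 10206 RPKM against 4329, 5548 and 4256.5 for Rmrp. Terc was the member that differed most between these cell types. It stood at 71.0, 75.6 and 63.8 RPKM in nonirradiated Neuro2a and at 3.46, 3.79 and 3.61 in HippCulture, a ratio of means of 19.4. Rmrp was 3.67 times higher in Neuro2a than in HippCulture, Rpph1 2.29 times higher in HippCulture, and the values of both did not overlap. Rny3 and Rny1 overlapped between the 2 cell types. In HippCulture the ranges of Rny3 and Terc overlapped as well. These levels are set on library totals, and in cells pooled before extraction fewer cells of a type and less RNA per cell cannot be told apart.

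**Figure D1:**
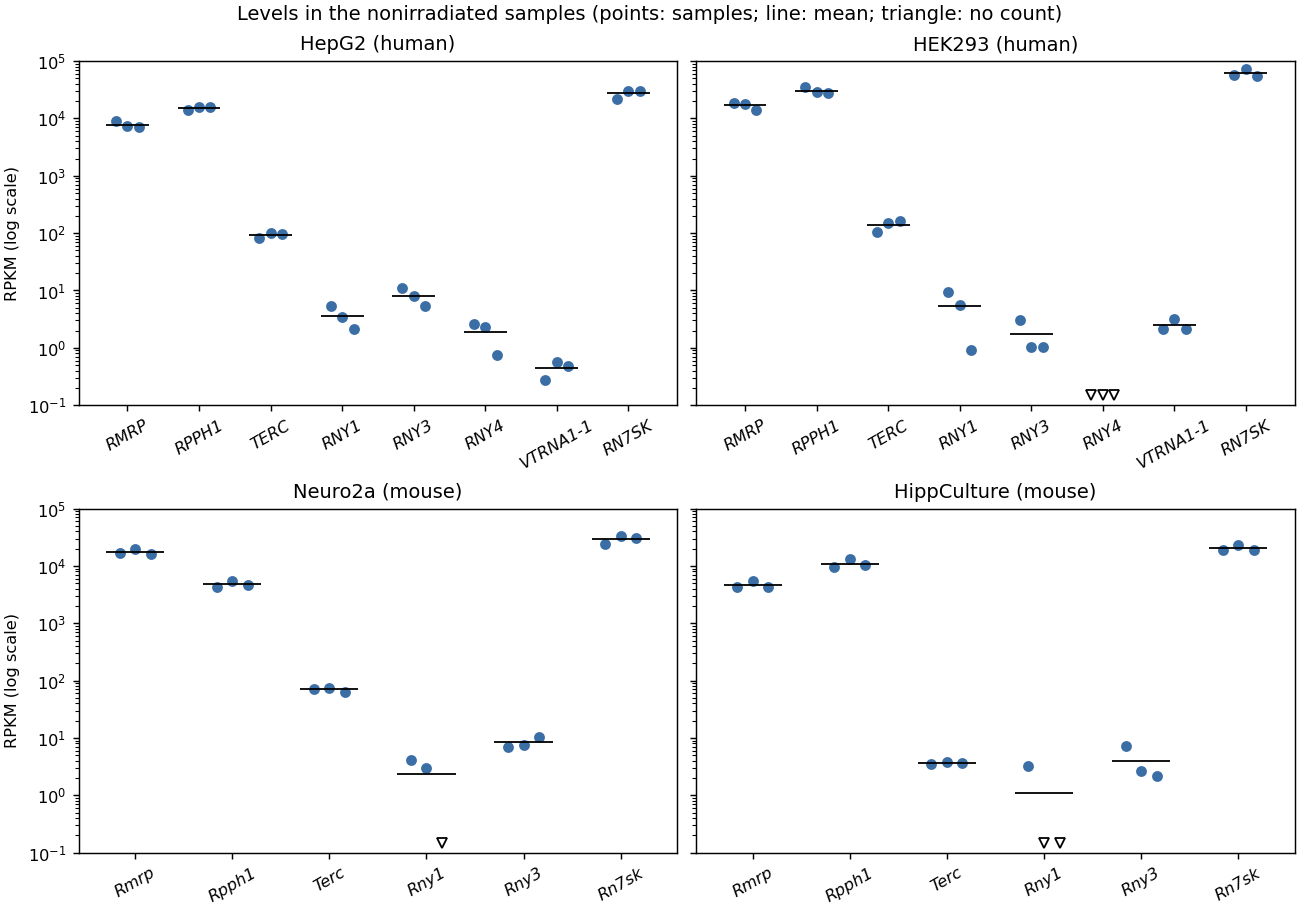
Level of each member and of 7SK in the nonirradiated samples of the 4 cell types, in RPKM on a log scale; points are the 3 samples, lines their mean, and triangles mark samples with no count. RPPH1 and RMRP stood between 4256.5 and 34939 RPKM, while the Y RNAs and VTRNA1-1 stayed at or below 10.99.

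Reads shared with other annotated genes differed between the species. In human, RMRP (chr9:35657754-35658017, hg38, minus strand) and RPPH1 (chr14:20343075-20343407, minus strand) had no other named gene on their exon bases, although each was annotated under a second identifier that covers all of its 264 or 333 bases. TERC shared 438 of its bases with the identifier named Telomerase-vert, which drew 99.7% to 100% of TERC's count in every sample. In mouse, Rmrp at chr4:43492788-43493058 (mm10, minus strand, 271 bases) shared 124 bases, or 45.8%, with exons of Ccdc107 on the opposite strand. Rpph1 at chr14:50807449-50807767 (mm10, minus strand, 319 bases) shared 233 bases, or 73%, with exons of Ccnb1ip1 on the same strand. Both stretches are printed with the shared bases in capitals, because they decide which reads were counted for both genes. Rmrp is given whole and Rpph1 from base 3 to base 302, chr14:50807466-50807765.
Rmrp: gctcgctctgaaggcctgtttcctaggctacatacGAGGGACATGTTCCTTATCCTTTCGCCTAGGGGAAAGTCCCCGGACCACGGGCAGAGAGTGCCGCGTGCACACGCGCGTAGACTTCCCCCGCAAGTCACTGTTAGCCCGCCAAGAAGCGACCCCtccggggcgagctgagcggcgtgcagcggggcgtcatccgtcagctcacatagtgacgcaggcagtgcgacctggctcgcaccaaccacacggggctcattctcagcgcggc
Rpph1: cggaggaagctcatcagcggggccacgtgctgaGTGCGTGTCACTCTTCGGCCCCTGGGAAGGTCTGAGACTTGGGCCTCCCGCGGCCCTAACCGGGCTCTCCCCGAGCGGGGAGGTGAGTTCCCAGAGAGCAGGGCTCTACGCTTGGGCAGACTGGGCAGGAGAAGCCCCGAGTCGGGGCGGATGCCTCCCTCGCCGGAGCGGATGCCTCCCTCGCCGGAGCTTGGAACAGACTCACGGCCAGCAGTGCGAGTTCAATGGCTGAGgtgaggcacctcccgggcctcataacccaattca

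The counts of these neighbours followed the small RNAs. Ccnb1ip1, a ubiquitin ligase gene needed in meiosis, had the same count as Rpph1 in all 6 Neuro2a samples, for example 11797 for both in nonirradiated replicate 1. In HippCulture the 2 counts were equal in 5 of 6 samples and differed by a single read in the other, 24603 against 24602. Ccdc107 had 77.5% to 79.6% of the Rmrp count in Neuro2a and 78.3% to 80.1% in HippCulture. Human CCDC107, which lies 273 bases from RMRP and shares none of its exon bases, had 0.0573% to 0.454% of the RMRP count. Since no strand option appears in the counting commands, reads of Rmrp and Ccdc107 cannot be told apart, nor can those of Rpph1 and Ccnb1ip1 within the shared bases. The fold changes of Ccdc107 and Ccnb1ip1 in these tables are therefore not measurements of those mRNAs.

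**Figure D2:**
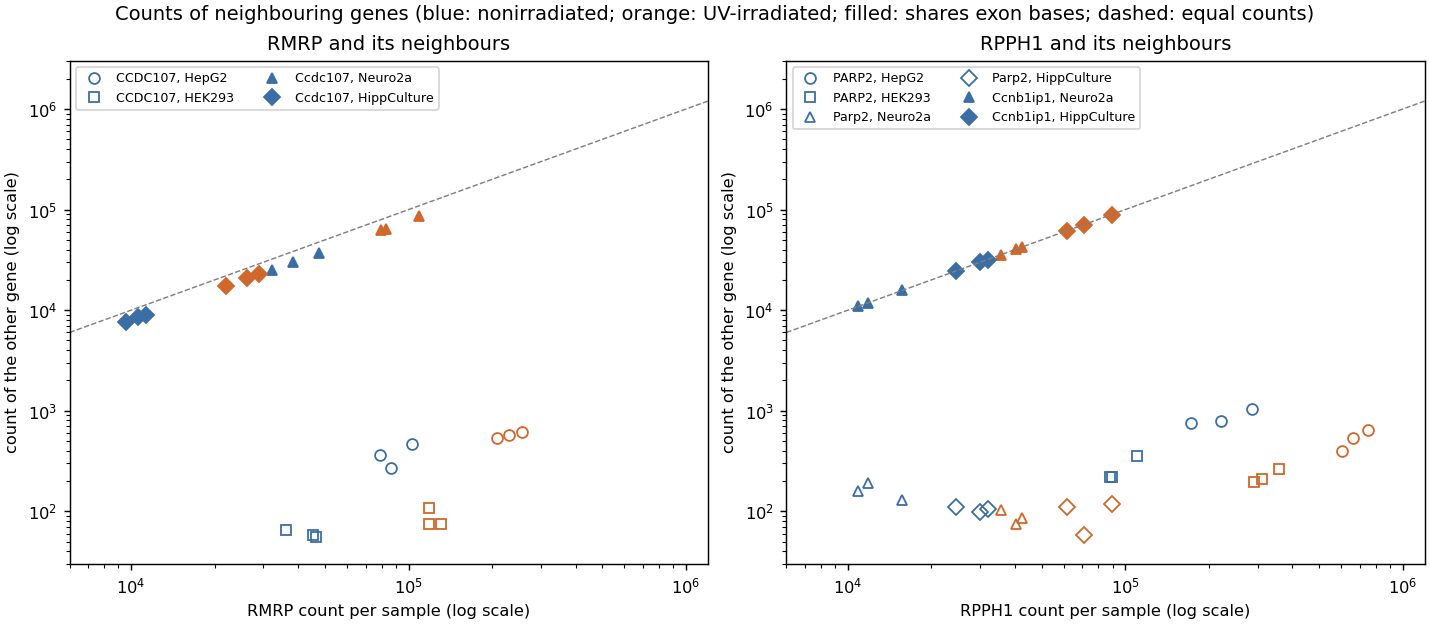
Raw count of a neighbouring gene (vertical, log scale) against the raw count of RMRP or RPPH1 (horizontal, log scale) in each sample, blue without and orange with UV, filled where the neighbour shares exon bases. Mouse Ccnb1ip1 sits on the line of equal counts and Ccdc107 just under it, while human CCDC107 and PARP2 of both species lie at or below 1.63% of the RNA beside them.

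RMRP, RPPH1 and TERC were higher with UV in all 4 cell types on the scale of normalised CPM. This is CPM divided by a composition factor (TMM, trimmed mean of M values). Rose and fell refer to such relative values, since the absolute amount of an RNA recovered cannot be read from library counts. Each gene was tested with edgeR by quasi-likelihood, and p was adjusted by Benjamini-Hochberg over all genes with a mean of at least 0.5 CPM in the nonirradiated samples. Of the members, 4 of 7 passed this filter in HepG2 and in HEK293, 4 of 5 in Neuro2a and 3 of 5 in HippCulture. In HepG2, 3 of those tested rose and 1 fell. Across all 20117 genes tested in HepG2, 38.1% rose and 40.7% fell. In HEK293, all 4 rose, where 24.2% of genes rose and 26.4% fell. In Neuro2a, all 4 rose, beside 28.9% and 33% of all genes, and in HippCulture all 3 rose, beside 26.1% and 25.9%. The median log2 fold change of the members tested was 2.62, 2.103, 2.43 and 1.95 in HepG2, HEK293, Neuro2a and HippCulture, and that of all genes tested −0.08, −0.08, −0.14 and −0.04.

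RPPH1 had the largest log2 fold change of the members tested in each of HepG2, HEK293, Neuro2a and HippCulture. In HepG2 its normalised CPM was 3058, 3352 and 3357 without UV and 23294, 22750.5 and 21719.8 with UV, a log2 fold change of 2.79 ± 0.12 (SE, n = 3 against 3, edgeR adjusted p = 2.83e-07). In HEK293 it was 9288, 7274 and 6696 against 53824, 33676 and 34492, a log2 fold change of 2.39 ± 0.22 (edgeR adjusted p = 5.83e-05). The irradiated samples lay above every nonirradiated one in both lines, and their spread was wider in HEK293, where replicate 1 stood apart. In Neuro2a Rpph1 stood at 917, 1146 and 974 against 6648, 8291 and 8707, a log2 fold change of 2.96 ± 0.14 (edgeR adjusted p = 1.90e-09). In HippCulture it stood at 2381, 3294 and 2966 against 8737, 14319 and 11517, a log2 fold change of 2.00 ± 0.15 (edgeR adjusted p = 1.30e-09). As a share of all counts before any composition factor, RPPH1 went from 0.512% to 1.44% in HepG2 and from 1.01% to 3.08% in HEK293.

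RMRP followed closely. In HepG2 its normalised CPM was 1529, 1213 and 1201 without UV and 7948, 7897 and 7555 with UV, a log2 fold change of 2.57 ± 0.13 (edgeR adjusted p = 4.08e-07). In HEK293 it was 3908, 3647 and 2728 against 19623, 13699.8 and 13084, a log2 fold change of 2.17 ± 0.21 (edgeR adjusted p = 6.59e-05). No nonirradiated value reached an irradiated one in either line. In Neuro2a Rmrp stood at 2971, 3462 and 2861 against 14751, 22454 and 17049.8, a log2 fold change of 2.55 ± 0.16 (edgeR adjusted p = 1.18e-08). In HippCulture it stood at 931, 1165 and 1051 against 3129, 5272 and 3739, a log2 fold change of 1.95 ± 0.14 (edgeR adjusted p = 1.13e-09). The second mouse identifier of Rmrp, which is 281 bases long, had the same counts in all 12 samples.

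TERC rose as well, from a far lower level. In HepG2 its normalised CPM was 29.3, 33.6 and 33.5 without UV and 209, 211 and 189.7 with UV, a log2 fold change of 2.66 ± 0.09 (edgeR adjusted p = 2.55e-07). In HEK293 it was 44.8, 62.9 and 65.5 against 212, 234 and 262, a log2 fold change of 2.03 ± 0.18 (edgeR adjusted p = 4.83e-05). The irradiated samples were again all above the others. In Neuro2a Terc stood at 19.9, 20.98 and 17.9 against 87.1, 94.9 and 112, a log2 fold change of 2.31 ± 0.12 (edgeR adjusted p = 2.68e-09). In HippCulture Terc had 12, 12 and 14 reads without UV and 16, 17 and 20 with UV. Its log2 fold change there was 1.08 ± 0.31 (edgeR adjusted p = 0.00610), the smallest called increase among the members, and it rested on the fewest reads of the 3 RNAs.

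The size of these increases depends on the composition factor. With library totals alone, the median log2 fold change of all genes moved to −1.38, −0.84, −1.32 and −0.59 for HepG2, HEK293, Neuro2a and HippCulture. The genes called higher were then 8.62% against 78.7% lower in HepG2, 7.61% against 54.6% for HEK293, 6.07% against 73.8% for Neuro2a and 7.14% against 49.5% for HippCulture. RMRP, RPPH1 and TERC then stood at 1.27, 1.49 and 1.35 in HepG2 and at 1.40, 1.61 and 1.27 in HEK293. Rmrp, Rpph1 and Terc stood at 1.35, 1.76 and 1.12 in Neuro2a. All of these still passed the edgeR test, as did Rmrp at 1.36 and Rpph1 at 1.43 in HippCulture, while Terc in HippCulture, at 0.55, did not (edgeR adjusted p = 0.200). None of these directions changed.

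**Figure D3:**
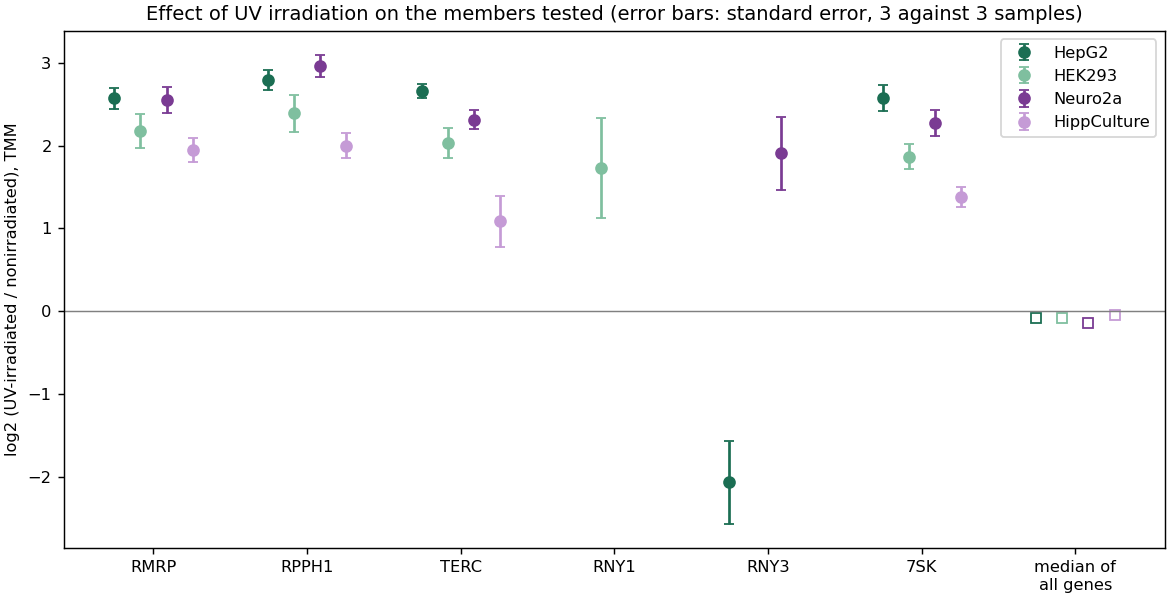
Log2 fold change with UV (vertical) of each member tested and of 7SK in the 4 cell types, with standard errors from edgeR (3 against 3 samples) and, as open squares, the median of all genes tested. RMRP, RPPH1 and TERC lie between 1.08 and 2.96, and RNY3 lies on opposite sides of 0 in HepG2 and Neuro2a.

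Whether the Y RNAs moved as a group was not tested, since no cell type had more than 1 of them past the filter. In HepG2 RNY3 fell, from 41, 44 and 23 reads without UV to 2, 4 and 5 reads with UV, a log2 fold change of −2.07 ± 0.50 (edgeR adjusted p = 0.00446). The counts of the 2 groups did not overlap, and with library totals alone the value was −3.35. RNY3 passed the filter through its nonirradiated samples, with a mean of 0.832 CPM against 0.0807 CPM with UV. It was not tested when the filter was set over all samples or required 10 counts in every sample, and stood at −2.11 when every gene with a read was tested (edgeR adjusted p = 0.000425). In HEK293 RNY3 had 3, 1 and 1 reads against 0, 1 and 2 and was below the filter. In Neuro2a Rny3 rose, from 6, 7 and 8 reads to 6, 14 and 12, a log2 fold change of 1.90 ± 0.44 (edgeR adjusted p = 0.00200). The raw counts overlapped and the normalised values did not, and with library totals alone the change was 0.72 (edgeR adjusted p = 0.138). In HippCulture Rny3 had 6, 2 and 2 reads against 5, 8 and 9, below the filter.

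RNY1 was at the edge of detection. It was called higher in HEK293, with 10, 6 and 1 reads without UV and 15, 10 and 12 with UV, a log2 fold change of 1.73 ± 0.60 (edgeR adjusted p = 0.0380). That call did not hold in any of the 5 fits that left out a sample and still tested the gene, where the log2 fold change was 1.21 to 1.94 and the adjusted p 0.0542 to 0.0940. Without nonirradiated replicate 1 the gene fell below the filter. With library totals alone the value was 0.97 (edgeR adjusted p = 0.167). With the replicate number as a block, it was 1.78 (edgeR adjusted p = 0.00069). That fit called 32.7% of all genes higher and 35.3% lower. When every gene with a read was tested, the value was 1.71 (edgeR adjusted p = 0.00237). In HepG2 RNY1 had 22, 21 and 10 reads without UV and 8, 10 and 16 with UV, which overlap. The ratio of its normalised counts, with over without UV, was 1.49 (95% counting interval 0.940 to 2.34). Its direction depended on the composition factor, since CPM on library totals averaged 0.411 without and 0.246 with UV. In Neuro2a Rny1 had 4, 3 and 0 reads against 8, 3 and 1, and in HippCulture 3, 0 and 0 against 1, 3 and 1.

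RNY4 and VTRNA1-1 passed the filter in neither human line, so their values have no test in the main comparison. RNY4 had 9, 12 and 3 reads in nonirradiated HepG2 and 2, 0 and 0 with UV, a ratio of normalised counts of 0.194 (95% counting interval 0.0222 to 0.780). In HEK293 it had no read without UV and 0, 1 and 1 with UV. VTRNA1-1 had 1, 3 and 2 reads without UV and 13, 24 and 17 with UV in HepG2, a ratio of 20.9 (95% counting interval 9.01 to 59.5), with all irradiated samples above the others. On library totals it averaged 0.0438 CPM without and 0.397 CPM with UV, a smaller difference. In HEK293 it had 2, 3 and 2 reads against 12, 4 and 6, a ratio of 4.83 (95% counting interval 1.99 to 13.4). These intervals cover counting error alone, not the spread between samples. When every gene with a read was tested, VTRNA1-1 had a log2 fold change of 4.26 in HepG2 (edgeR adjusted p = 1.19e-07) and 2.22 in HEK293 (edgeR adjusted p = 0.00382). RNY4 in HepG2 had −2.30 in that fit (edgeR adjusted p = 0.0851), Rny1 in Neuro2a 1.94 (edgeR adjusted p = 0.0321) and Rny3 in HippCulture 1.68 (edgeR adjusted p = 0.0127).

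**Figure D4:**
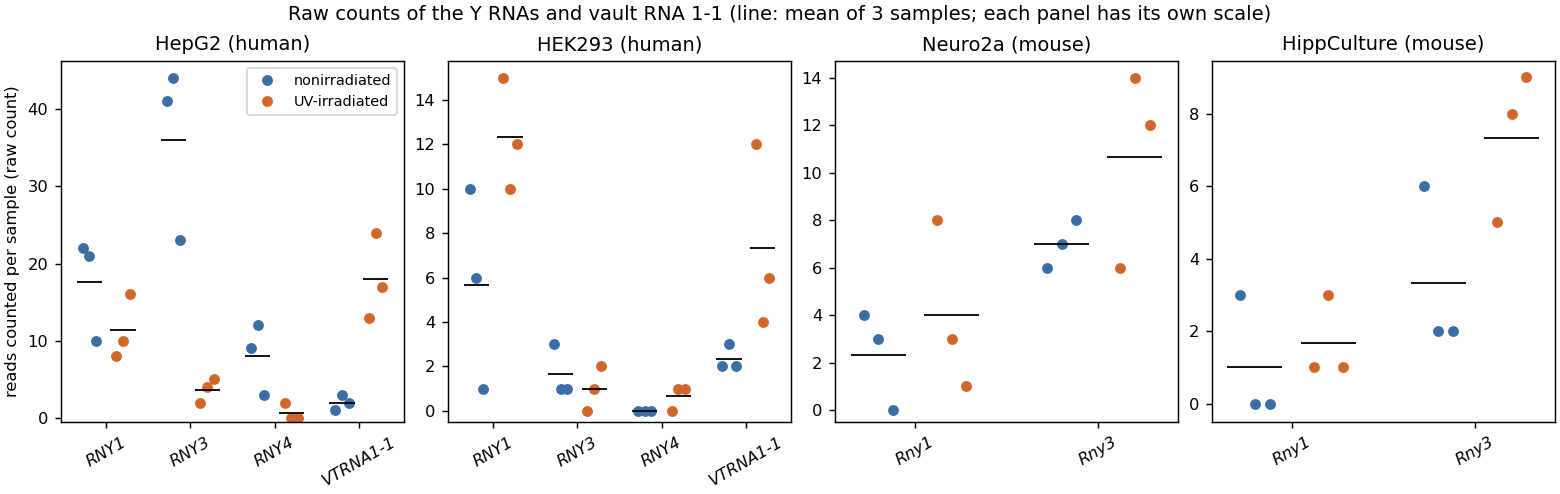
Raw number of reads per sample on the Y RNAs and VTRNA1-1 in the 4 cell types, blue without and orange with UV, with the mean of the 3 samples as a line and a separate linear scale for each panel. RNY3 in HepG2 goes from 23 to 44 reads without UV to 2 to 5 with UV, and most other values lie under 20 reads.

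The filter at 0.5 CPM lay within this range of low values. Just inside it were RNY1 in HEK293 at a mean of 0.597 CPM, RNY3 in HepG2 at 0.832 and Rny3 in Neuro2a at 0.852. Just outside were RNY1 in HepG2 at 0.411 CPM and Rny3 in HippCulture at 0.406. Genes as short as these seldom passed. Of the genes with at most 150 exon bases, 5.38% to 8.57% were tested, depending on the cell type, against 32.4% to 35.1% of all genes.

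Few annotated Y RNA copies could be tested. Of 812 genes named as Y RNAs or copies, 14 passed the filter in HepG2 and 10 in HEK293. Of the 14, 13 lie inside the span of another gene and RNY3 alone does not. The filter on nonirradiated samples favours copies that are high there, so no count of their directions is given. GHET1, a long noncoding RNA gene 279 bases from RNY1, fell in HepG2 from 246, 196 and 170 reads to 19, 17 and 13, a log2 fold change of −2.47 ± 0.32 (edgeR adjusted p = 9.52e-05), and was not called in HEK293 at 0.35 ± 0.35.

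Whether the large increases were shared by an abundant RNA of the same kind was checked within each library. 7SK, the polymerase III RNA that holds the elongation factor P-TEFb inactive, served as the denominator, since a ratio of 2 RNAs of a library does not depend on the composition factor. An exact two-sided permutation test of 3 against 3 samples cannot give a p below 0.1. In HepG2 the ratio of RPPH1 to 7SK was 0.668, 0.542 and 0.536 without UV and 0.664, 0.677 and 0.661 with UV, which overlap (exact permutation p = 0.3). RMRP and TERC also overlapped, and the mean log2 differences of the 3 RNAs were 0.21, −0.01 and 0.07. RNY3 relative to 7SK was lower in every irradiated sample, with a log2 difference of −4.38 (exact permutation p = 0.1). RNY3 had only 2, 4 and 5 reads with UV and had passed the filter through its nonirradiated samples. 7SK itself rose by 2.58 in HepG2, so an unchanged gene would also be lower against it. Nonirradiated replicate 1 of HepG2 stood apart, and without it all 4 members tested were separated from 7SK in 1 direction or the other, RMRP at 0.25.

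In HEK293 the ratios to 7SK of all 4 members tested overlapped between the groups, with mean log2 differences of 0.29 for RMRP, 0.49 for RPPH1, 0.17 for TERC and 0.05 for RNY1. Within same-numbered pairs, taken as paired in this line, RPPH1 relative to 7SK was higher with UV in 3 of 3 pairs, by 0.65, 0.54 and 0.29. RMRP was also higher in 3 of 3, by 0.44, 0.24 and 0.19, TERC in 2 and RNY1 in 1. The exact sign-flip permutation p was 0.25 for RPPH1 and RMRP, the smallest that 3 pairs allow. In the unpaired comparison, leaving out nonirradiated replicate 1 separated 2 of the 4, and leaving out nonirradiated replicate 3 or irradiated replicate 2 separated 1. In Neuro2a Rpph1 was higher against 7SK in every irradiated sample, 0.257, 0.269 and 0.245 against 0.177, 0.158 and 0.147, a log2 difference of 0.68 (exact permutation p = 0.1, the smallest possible). Rmrp, Terc and Rny3 overlapped there. Leaving out nonirradiated replicate 1 separated 3 of the 4 in Neuro2a, and leaving out nonirradiated replicate 2 or irradiated replicate 2 separated 2. In HippCulture all 3 members tested were separated. Rmrp and Rpph1 were higher against 7SK with UV, by 0.55 and 0.62 on the log2 scale, and Terc was lower, with a difference of −0.29 (exact permutation p = 0.1 for each).

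The ribonucleoproteins of RMRP and RPPH1 share subunits. The ratio of RMRP to RPPH1 was lower with UV in Neuro2a, HEK293 and HepG2, and overlapped in HippCulture. In HEK293 the groups were separated only narrowly, at 0.407 against 0.4068. The smallest exact p that 3 against 3 samples allow is 0.1. In Neuro2a Rmrp had 3.24, 3.02 and 2.94 times the count of Rpph1 without UV and 2.22, 2.71 and 1.958 times with UV, a log2 difference of −0.43 with no overlap (exact permutation p = 0.1). In HEK293 the ratio was 0.421, 0.501 and 0.407 against 0.365, 0.4068 and 0.379, a log2 difference of −0.20 with no overlap (exact permutation p = 0.1). In HepG2 it was 0.4999, 0.362 and 0.358 against 0.341, 0.347 and 0.348, a log2 difference of −0.22 with no overlap (exact permutation p = 0.1). Without nonirradiated replicate 1 the difference in HepG2 was −0.06, and without nonirradiated replicate 2 that in HEK293 was −0.11. In HippCulture the ratios overlapped, with a log2 difference of −0.06 (exact permutation p = 0.6).

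**Figure D5:**
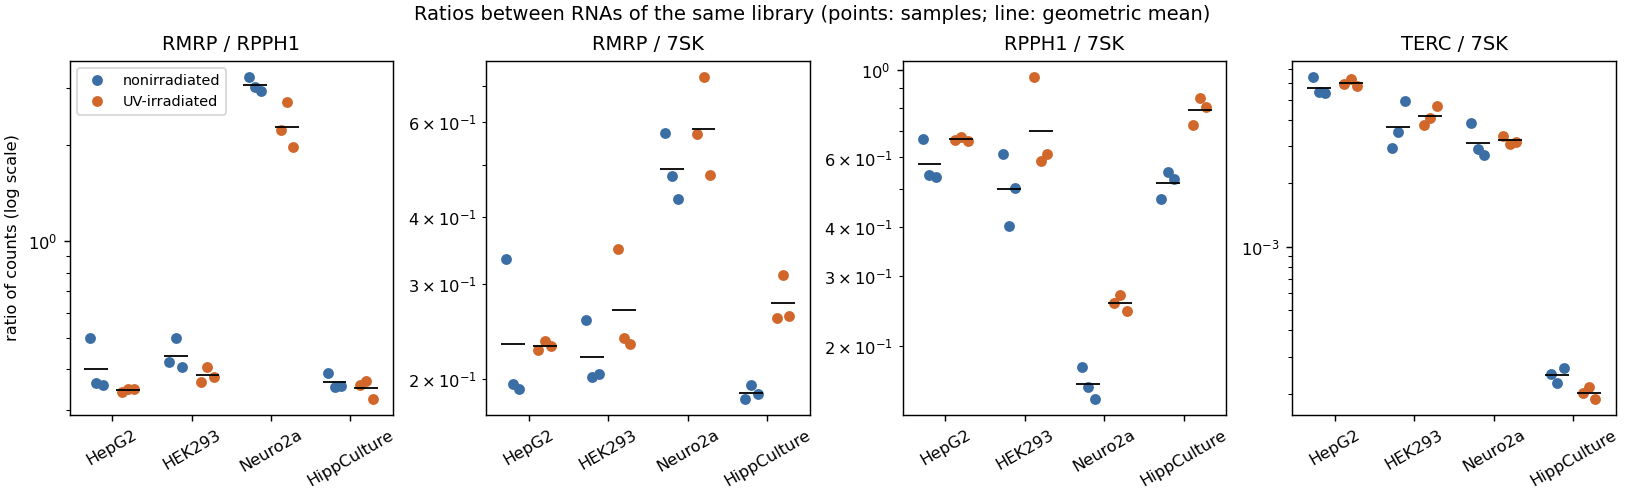
Ratio of raw counts between 2 RNAs of the same library (vertical, log scale), blue without and orange with UV, with geometric means as lines, for RMRP over RPPH1 and for RMRP, RPPH1 and TERC over 7SK. Neuro2a stands apart with 1.958 to 3.24 Rmrp reads per Rpph1 read, against 0.325 to 0.501 in the other cell types.

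The increases were larger in Neuro2a than in HippCulture for Rpph1 and Terc. The interaction of cell type and UV in edgeR was 0.96 ± 0.23 for Rpph1 on the log2 scale (adjusted p = 0.00483) and 1.23 ± 0.32 for Terc (adjusted p = 0.00791). Among the 14973 mouse genes in that test, 8.39% were called with a more positive effect in Neuro2a and 16.1% with a less positive one. Rmrp differed by 0.59 ± 0.24 (edgeR adjusted p = 0.0779), with a 95% interval of 0.12 to 1.07. It passed without Neuro2a irradiated replicate 1, at 0.72 (edgeR adjusted p = 0.0236), and without HippCulture irradiated replicate 2, at 0.83 (edgeR adjusted p = 0.0111). With library totals alone, no member passed, and the genes called were 0.427% and 50.2%. In the human lines none of the 3 members tested passed, while 3.1% of 16759 genes were called with a more positive effect in HepG2 and 4.85% with a less positive one (0.716% and 17.5% with library totals alone). The differences, HepG2 minus HEK293, were 0.29 for RMRP (95% interval −0.21 to 0.80), 0.30 for RPPH1 (−0.23 to 0.83) and 0.53 for TERC (0.12 to 0.94), with edgeR adjusted p of 0.520, 0.530 and 0.143. The TERC difference passed with the replicate number as a block, the paired fit, at 0.52 (edgeR adjusted p = 0.0146). That fit also called more of all genes, 2092 more positive and 1443 less positive in HepG2, against 520 and 812 without the block. It also passed without HEK293 nonirradiated replicate 1, at 0.69 (edgeR adjusted p = 0.0240).

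The mRNAs for the listed proteins of RNase P and RNase MRP mostly rose. Of 11 proteins of RNase P and RNase MRP, 10 were tested in HepG2, of which 9 rose and none fell (median log2 fold change 1.52). For HEK293, 8 of 11 rose and 1 fell (median 1.20). For Neuro2a, 10 of 11 rose (median 1.49), and for HippCulture 9 of 11 (median 0.998). Of all genes tested, 38.1%, 24.2%, 28.9% and 26.1% rose in these cell types in the same order. POP7, a subunit of both enzymes, rose by 2.25 ± 0.09 in HepG2 and by 1.88 ± 0.28 in HEK293. RPP30 rose by 0.89 ± 0.08 and 0.73 ± 0.17. RPP14, which had the highest CPM of the list in HepG2 but not the highest RPKM, was not called there at −0.11 ± 0.07 and fell in HEK293 by 0.64 ± 0.18. In mouse, Pop5 rose by 1.64 ± 0.11 in Neuro2a and 1.44 ± 0.13 in HippCulture. Rpp14 rose by 0.74 ± 0.15 and 0.41 ± 0.12, and Pop1, the large scaffold subunit, was not called in either, at −0.18 ± 0.09 and −0.03 ± 0.16.

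The telomerase proteins divided. NHP2 and NOP10, small proteins of the H/ACA particle that also bind TERC, rose in both human lines and both mouse cell types, NHP2 by 2.101 ± 0.10 in HepG2 and 1.67 ± 0.28 in HEK293, and Nhp2 by 1.84 ± 0.13 in Neuro2a and 1.43 ± 0.12 in HippCulture. NOP10 rose by 1.85 ± 0.14 and 1.33 ± 0.20 in HepG2 and HEK293, and Nop10 by 1.29 ± 0.11 and 1.22 ± 0.10 in Neuro2a and HippCulture. DKC1, the pseudouridine synthase of that particle, rose by 0.42 ± 0.10 in HepG2, and stood at 0.20 ± 0.21 in HEK293, at 0.05 ± 0.15 in Neuro2a and at 0.30 ± 0.17 in HippCulture, not called in these 3. TERT, the reverse transcriptase, rose by 0.42 ± 0.14 in HepG2 and was not called in HEK293 at 0.36 ± 0.31. Tert fell by 0.54 ± 0.22 in Neuro2a and was not called in HippCulture at 0.23 ± 0.37. Of 8 proteins, 5 rose in HepG2 (median 0.42) and 3 in HEK293 (median 0.43). Among the mouse cells, 4 rose in Neuro2a (median 0.20) and 3 in HippCulture (median 0.28). Of all genes tested, 38.1% rose in HepG2 and 28.9% in Neuro2a. The share that rose in HEK293 and HippCulture, 3 of 8, was not far from that of all genes, 24.2% and 26.1%. The 3 of 8 that fell did so in Neuro2a, a share not far from the 33% of all genes that fell there. They were Tert and, named after their values were seen, the assembly factor gene Naf1 (−1.77) and Gar1 (−0.90).

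Of the 4 Y RNA binding proteins, 3 rose and 1 fell in HepG2, 1 rose and 1 fell in HEK293, 2 rose and 1 fell in Neuro2a, and 1 rose and 1 fell in HippCulture, with medians of 0.50, 0.24, 0.02 and −0.06. With 4 genes these counts are read only beside the shares of all genes given above. RO60, which binds the Y RNAs directly, was the one that fell, by 1.38 ± 0.12 in HepG2 and 2.01 ± 0.13 in HEK293. Its mouse gene, named Trove2 and picked for mention after its value was seen, fell by 1.94 ± 0.13 in Neuro2a and 1.11 ± 0.11 in HippCulture. SSB, which encodes La, rose by 0.66 ± 0.10 in HepG2 and was not called in HEK293 at 0.43 ± 0.17, in Neuro2a at −0.22 ± 0.10 or in HippCulture at −0.10 ± 0.15. NCL, the nucleolin gene, rose by 0.34 ± 0.07 in HepG2 and Ncl by 0.25 ± 0.09 in Neuro2a, and they stood at 0.06 ± 0.20 in HEK293 and −0.02 ± 0.10 in HippCulture. Puf60 rose by 1.08 ± 0.10 and 0.82 ± 0.08 in the mouse cells.

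For the vault, MVP, its major protein, rose by 1.14 ± 0.08 in HepG2 and Mvp by 0.81 ± 0.16 in Neuro2a, and neither was called in HEK293 (0.50 ± 0.46) or HippCulture (−0.17 ± 0.35). TEP1 fell by 0.76 ± 0.09 in HepG2 and 0.78 ± 0.17 in HEK293, and Tep1 by 0.41 ± 0.15 in Neuro2a. PARP4 fell by 0.36 ± 0.06 and 0.57 ± 0.13 in the human lines. Parp4 and Tep1 were not called in HippCulture, at 0.44 ± 0.42 and 0.26 ± 0.46, and Parp4 was not called in Neuro2a at −0.28 ± 0.18. The medians of these 3 genes were −0.36, −0.57, −0.28 and 0.26 in the order of cell types used above.

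Other small noncoding RNAs rose as well. The study itself reported that reads of 7SK, 7SL and other classic noncoding RNAs did not change or went up with UV. In HepG2 all 10 that were tested rose, with a median log2 fold change of 2.32, and in HEK293 10 of 11 rose with a median of 1.88, BCYRN1 not being called. In Neuro2a all 8 rose (median 3.06), as did all 7 tested in HippCulture (median 1.93). RN7SK rose by 2.58 ± 0.16 in HepG2 and 1.87 ± 0.15 in HEK293, and Rn7sk by 2.28 ± 0.16 in Neuro2a and 1.38 ± 0.12 in HippCulture. RN7SL1 and RN7SL2, RNAs of the signal recognition particle whose reads could be split between near-identical copies, rose by 2.75 ± 0.14 and 2.88 ± 0.13 in HepG2 and by 2.67 ± 0.37 and 2.73 ± 0.38 in HEK293. Mouse Rn7s1 and Rn7s2 rose by 4.52 ± 0.15 and 4.48 ± 0.12 in Neuro2a and by 2.96 ± 0.22 and 2.77 ± 0.23 in HippCulture. Short genes as a whole had smaller medians. Of 1375 genes with at most 500 exon bases tested in HepG2, 30.1% rose and 41.5% fell (median −0.36), and in HEK293 26.2% of 1403 rose and 19.0% fell (median 0.05). In Neuro2a 33.5% of 1018 rose and 19.2% fell (median 0.19), and in HippCulture 26.3% of 879 rose and 15.5% fell (median −0.02). Among genes of at most 150 exon bases, the length of the Y RNAs and VTRNA1-1, 41.6% rose and 25.6% fell in HepG2 (median 0.39), and 29.7% rose and 12.9% fell in HEK293 (median 0.27). The medians were 0.25 in Neuro2a and −0.10 in HippCulture.

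Genes whose pattern over the 12 samples of a species was most like a member were found by the root mean square difference of log2 CPM, each gene centred on its own mean. For RMRP these were SCARNA6, a small Cajal body RNA (0.164), RPS15 (0.174) and GADD45GIP1 (0.177), and RPPH1 came 6th at 0.185 among 16757 genes with a median of 1.43. For RPPH1 they were NDUFB7 (0.165), the unnamed ENSG00000269711 (0.178) and the histone gene H4C3 (0.182), and for TERC they included RPL37A (0.122) and ENSG00000260342 (0.133). In mouse, Rmrp was nearest to the small nucleolar RNA Snora73b (0.1498), Gm17300 (0.171) and Mir5121 (0.202). Rpph1 was nearest to Gm22442 (0.216), Gm1673 (0.302) and Uqcr11 (0.331), and Terc to Sdsl (0.284), Ctsz (0.323) and Rom1 (0.338). Rmrp and Rpph1 were far apart in mouse, at 1.45 against a median of 1.68 over all genes compared with Rmrp. The points of each pattern share libraries and include both cell types, so these values are a description.

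The genes beside the members were measured as well. Human CCDC107 rose by 1.87 ± 0.09 in HepG2 and 1.15 ± 0.19 in HEK293, and ARHGEF39, 858 bases from RMRP, by 1.53 ± 0.07 and 0.69 ± 0.14. PARP2, which lies 175 bases from RPPH1 on the other strand, rose by 0.50 ± 0.11 in HepG2 and was not called in HEK293 at 0.42 ± 0.28. Mouse Parp2, 74 bases from Rpph1, rose by 0.46 ± 0.18 in Neuro2a and 0.45 ± 0.14 in HippCulture. ENSG00000254846, 826 bases from RPPH1, was not called in either human line, at 0.22 ± 0.31 and 0.92 ± 0.44. All of these had the same edgeR test and adjustment over all genes.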

How the data were processed

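The authors removed ribosomal RNA, made Illumina TruSeq libraries, mapped the reads with TopHat2 2.1.1 to hg38 or mm10 and counted them on GENCODE exons (release 28 for human, M17 for mouse) with featureCounts. Its version was 1.5.3 in the HepG2 files and 1.6.1 in the rest, per the file headers and the submitters' processing notes. The labels name a stranded mRNA kit and the study's methods an unstranded one, and neither strand nor multiply mapped reads are set in the counting commands. The deposited values are raw counts per gene and sample, and reads lying on more than one gene were added to all of those genes. That double counting enters the library totals behind CPM and RPKM.

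All 24 samples were used, grouped by their labels. Names were matched by Ensembl identifier to GENCODE 44 for 99% of human identifiers and to M21 for 99.82% of mouse ones. The members and gene lists were chosen with earlier results of these data known. Separate fits for the cell types used edgeR 4.0.16 (R 4.3.3), TMM factors and the quasi-likelihood test of UV on genes with a mean of at least 0.5 CPM without UV, adjusted by Benjamini-Hochberg with a threshold of 0.05. The standard error is the log2 fold change divided by the square root of F. Interactions were fitted over the 12 samples of a species. Ratios used counts plus 1 and exact permutation tests, sequence work used Biopython 1.88, and the remaining calculations used Python 3.11.15 with scipy 1.17.1. The study describes its fold changes as coming from biological triplicates. Nothing in the labels says that replicates came from separate cultures, so p-values measure the spread between these samples.

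Named genes are all members, genes sharing exon bases with them or within 1000 bases, the 3 most abundant of each list in HepG2 or Neuro2a, TERT, and the 3 genes most like RMRP, RPPH1 and TERC in pattern. A few items that these rules cover are not reported here. Same-numbered samples deviated together in HEK293 (correlations of 0.589, 0.302 and 0.391 across genes), which was taken as pairing. The HEK293 fits, also those that left out a sample, nevertheless had no replicate block unless the block is named. With the block, RMRP, RPPH1 and TERC stood at 2.17, 2.37 and 2.04 in HEK293. Alternatives were DESeq2 1.42.0 and its size factors, library totals alone, 3 other filters, the replicate block, 1 identifier per RNA, a pseudocount of 0.5, leaving out each sample and, added after seeing the data, paired ratios to 7SK in HEK293. On simulated counts, the fits for single cell types recovered 97% to 100% of genes changed by 2 on the log2 scale and 39% to 47% of those changed by 1. The interaction fits recovered 89% to 94% and 14% to 17%. Self-test false calls made up 3.55% to 6.72% of calls. The simulation changed 100 genes at each size, as many up as down, with the same dispersion for all genes and no shift in composition. It therefore does not test the composition factor, or recovery and false calls where as many genes change as in these data.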

Additional observations from a re-analysis of the deposited data

Results flagged for a closer look

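Both results here were picked out because the effect of UV differed between the 2 mouse cell types by a test of the difference itself, the interaction term in edgeR. The log2 fold change of Terc was 1.23 higher in Neuro2a than in HippCulture, 2.31 against 1.08, with every irradiated sample above every nonirradiated one in normalised CPM in both cell types. That of Rpph1 was 0.96 higher, 2.96 against 2.00, again with no overlap in either. Both differences depended on the composition factor, since with library totals alone they were 0.57 for Terc (edgeR adjusted p = 0.151) and 0.34 for Rpph1 (edgeR adjusted p = 0.195). Terc in HippCulture rested on 12 to 20 reads per sample. Relative to 7SK, Terc averaged 0.00312 without and 0.00320 with UV in Neuro2a, and 0.000246 without and 0.000201 with UV in HippCulture (geometric means). Rpph1 relative to 7SK averaged 0.160 without and 0.257 with UV in Neuro2a, and 0.516 without and 0.791 with UV in HippCulture, log2 differences of 0.68 and 0.62. Rn7sk itself rose by 2.28 in Neuro2a and 1.38 in HippCulture.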

How the results depend on the processing

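The numbers of members changed in HepG2, HEK293, Neuro2a and HippCulture stayed within 1.5 times their value under every alternative run, and no called fold change turned direction. With the replicate block, the numbers were again 4, 4, 4 and 3, and the block moved no call of a member in a single cell type. In the interactions, the block moved the number of members that differed between HepG2 and HEK293 from 0 to 1 (TERC, 0.52), and that between Neuro2a and HippCulture from 2 to 3, with Rmrp at 0.60 (edgeR adjusted p = 0.000461). In HEK293, 2 of 4 members moved 1 way against 7SK in every pair, a count added after seeing the data, while 0 were separated without pairing. Same-numbered samples correlated at −0.01 to 0.036 in HepG2, 0.083 to 0.228 in Neuro2a and 0.048 to 0.126 in HippCulture, so the numbers were not taken to pair them. Rmrp also passed with DESeq2 size factors (0.68) and with every gene that had a read (0.52). With library totals alone, the mouse number went from 2 to 0, and the differences turned direction for RMRP (−0.13) and RPPH1 (−0.12) between the human lines and for Rmrp (−0.0179) between the mouse cell types, the cause not being tested. Leaving out 1 sample gave 0 to 1 members for the human and 2 to 3 for the mouse interaction. It gave 1 to 4 members separated from 7SK in HepG2, 0 to 2 in HEK293 and 1 to 3 in Neuro2a. Over the same fits the log2 difference ranged from −0.15 to 0.25 for RMRP to 7SK in HepG2, from −0.60 to 0.62 for RNY1 to 7SK in HEK293 and from −0.0641 to 0.19 for Terc to 7SK in Neuro2a. For the ratio of RMRP to RPPH1, the paired difference had the same value and an exact sign-flip p of 0.25 in HepG2, HEK293 and Neuro2a, the smallest that 3 pairs allow. A pseudocount of 0.5 changed no direction. The Y RNAs and VTRNA1-1 rested on few reads, and their counts never passed 44 in a sample.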
